A study of Homo sapiens with 39 samples.

Results

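The 11150 gene-targeting guides of an epigenetic CRISPR library were followed in A375 melanoma cells that lack MED23, and their abundance after 14 days in vemurafenib was set against their abundance at day 0. The members were all guides of the MED23 knockout screen's table that name a gene, 11150 of 12214, with 10 guides for each of 1115 genes. The remaining 1064 guides are controls (83 named CTRL, 267 named AAVS1 after a safe-harbour locus, 714 named Zhang) and served as the reference, so a value above 0 means that cells carrying a guide gained on the control cells since the start. This is a different question from drug against vehicle: it asks which knockouts outgrew controls over the whole period, with the drug and 14 days of growth combined.

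The guides integrated in the cells' DNA were recovered by PCR and counted by sequencing. The vemurafenib group is MED23 knockout A375 cells kept for 14 days in vemurafenib at 1 µM (3 libraries), the DMSO group is the same cells kept for 14 days in vehicle (3 libraries), and the day-0 group is the same cells at the start (3 libraries). All 9 libraries therefore share the loss of MED23 and carry the same guide library, and no MED23 wild-type cells entered the comparison. The labels name the line and its genotype but not whether the knockout is 1 clone. Nor do they say whether the 3 libraries of a group came from separate infections or cultures, so the spread between libraries may be technical. Standard errors, guide p-values and permutation tests rest on that spread. Most gene p-values below come from ranking a gene's guides among the control guides as if the guides were independent. They measure how a gene's guides agree against the controls, and not directly the spread between libraries. The series holds 39 libraries in 13 groups, and 6 of them make up the comparison of vemurafenib with day 0. A later part sets this screen beside another one with the same guide library, in 1 fit of 18 libraries. That screen used A375 cells labelled as MED12 knockout, kept in DMSO or in vemurafenib at 2 µM.

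A375 carries an activating BRAF mutation and depends on signalling from BRAF through the kinases MEK and ERK. Vemurafenib inhibits mutant BRAF, and melanoma cells can regain growth when the pathway is switched on again from above, for example through RAS, or when the cell depends less on it. MED23 is a tail-side subunit of Mediator, the complex that carries signals from transcription factors to RNA polymerase II, and it is known as a contact point for factors that respond to MAPK signalling. In a pooled knockout screen each cell carries a guide as a barcode, so a guide that gains reads marks cells that multiplied or survived better than the rest, and a guide that loses reads marks cells that did worse. Guides of 1 gene share their target and are not replicates of a condition. The files give guide names and counts and no guide sequences, so the guides are named by gene and number.

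Sequencing depth was 27452353, 28650378 and 28994690 reads in the vemurafenib libraries, 22846325, 25434301 and 24490096 reads in the DMSO libraries, and 22935187, 26077954 and 25160620 reads at day 0. The 50% of reads with the highest counts came from 475, 33 and 104 guides under vemurafenib, from 2391, 2405 and 2396 guides in DMSO, and from 3604, 3635 and 3632 guides at day 0. The drug libraries were thus held by few guides, and the 3 of them differed from each other in how few (exact permutation test on vemurafenib against day 0, two-sided p = 0.1, the smallest that 3 against 3 libraries can give). A median guide had 971, 740 and 828 reads under vemurafenib and 1646, 1879 and 1815.5 reads at day 0. Every guide had reads at day 0, and 1, 0 and 0 guides had none under vemurafenib.

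Because a few guides took so many reads, scaling on all reads would make every other guide look lower. All values below are therefore scaled on the control guides: control-scaled CPM (counts divided by a library size set on the controls) hold the control guides level between libraries, and the sum over a gene's 10 guides is written as its summed CPM. The log2 fold change of a gene is the median over its 10 guides. Its score change is the mean over guides of log2 CPM, taken after adding 0.5 to each count, vemurafenib minus day 0. Its standard error comes from 3 libraries per group. Guide counts were tested with edgeR's quasi-likelihood test, and the ranks of a gene's guides among the controls were combined by robust rank aggregation (RRA), so the call asks whether several guides of a gene lie in the tail of the controls. Adjusted p-values from this procedure are written edgeR/RRA adjusted p and cover all 1115 genes.

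The control guides themselves did not move together. Against day 0 the median log2 fold change under vemurafenib was 0.19 for CTRL guides, 0.14 for Zhang guides and -0.49 for AAVS1 guides, beside -0.80 for gene-targeting guides. In DMSO the same medians were 0.18, 0.14, -0.61 and -1.04. The mean log2 level of AAVS1 guides minus that of CTRL and Zhang guides was -0.70, -0.69 and -0.69 in the vemurafenib libraries, -0.90, -0.87 and -0.80 in the DMSO libraries, and 0.05, 0.03 and 0.04 at day 0. The shift under vemurafenib was -0.73 ± 0.0067 (SE, n = 3 libraries per group), with groups that did not overlap (exact permutation test, two-sided p = 0.1, the smallest possible). The zero line therefore depends on which controls are taken. The labels do not say what CTRL and Zhang guides target or whether they cut, and the cause of the shift was not tested. The median over all genes was -0.76 against all controls, -0.19 against AAVS1 guides alone (a shift of 0.57), -0.86 against CTRL and Zhang guides alone, and 0.06 when libraries were scaled by TMM over all guides (a shift of 0.81). Gene calls are given against all controls. Calls against AAVS1 guides alone are added for many, but not all, of the genes where the call or the sign is another one.

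Against all controls 26 of 1115 genes were called enriched (2.33% of genes tested) and 970 depleted (87.0%). Against AAVS1 guides alone 48 genes were enriched (4.30%) and 366 depleted (32.8%), and against CTRL and Zhang guides alone 20 were enriched (1.79%) and 1073 depleted (96.2%). All 26 enriched genes were also enriched against AAVS1 guides, and 20 of them against CTRL and Zhang guides, where 4 turned to a depleted call and 2 had no call. The median guide was above 1 on the log2 scale for 13 genes and below -2 for 126 genes. Gene medians ran from -4.18 for RPL18, a ribosomal protein, to 7.96 for CUL3.

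The enriched genes included the CUL3 and KEAP1 ubiquitin ligase, the tumour suppressors NF1 and NF2, the Mediator subunits MED12 and MED19, members of the SAGA coactivator, and brakes of the cell cycle led by RB1. Together the guides of the 26 genes held 29.1%, 38.5% and 39.5% of all reads under vemurafenib, 2.10%, 2.10% and 2.14% in DMSO, and 2.09%, 2.05% and 2.06% at day 0. These genes were chosen by the same counts, so their shares are a description. The 95% Wilson interval of every read share given here is at most 0.0178 percentage points to either side, and it covers counting error only, since PCR reads are not independent molecules.

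CUL3, the scaffold of a family of ubiquitin ligases that KEAP1 and other adaptors direct to their substrates, was the dominant knockout of the population. Its guides held 16.0%, 24.0% and 26.4% of all reads under vemurafenib, against 0.189%, 0.167% and 0.205% in DMSO and 0.103%, 0.0831% and 0.0860% at day 0. The summed CPM of CUL3 was 203423, 405113 and 398699 under vemurafenib, 1140.1, 1005 and 1239 in DMSO, and 1149.8, 934 and 966 at day 0. All vemurafenib libraries were far above both other groups, while the DMSO and day-0 libraries overlapped. The CUL3 score rose by 7.07 ± 0.25 (SE, n = 3 libraries per group) and its median guide by a log2 fold change of 7.96 (edgeR/RRA adjusted p = 1.26e-22). Over DMSO growth alone the median CUL3 guide stood at 0.14.

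Of the 10 CUL3 guides 9 were called higher. The guide CUL3_2, the exception, had 100.2, 46.4 and 65.7 CPM under vemurafenib and 58.8, 71.8 and 57.4 CPM at day 0, and overlapped. The other CUL3 guides had log2 fold changes between 6.31 and 10.39. The highest was CUL3_10, which alone held 6.61%, 9.67% and 15.2% of all reads under vemurafenib and 0.0101%, 0.0101% and 0.0116% at day 0. CUL3_6 was the steadiest of those between libraries, with 5480.3, 5757 and 7136 CPM under vemurafenib against 60.2, 50.8 and 59.4 CPM at day 0. CUL3 guides made up 6 of the 10 guides with the largest mean share of reads, beside NF2_6, NF2_7, CEBPA_7 and ALDH6A1_7.

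KEAP1, the CUL3 adaptor that holds down the oxidative stress factor NRF2, also rose, on a much smaller scale. Its summed CPM was 3048, 3796 and 6415 under vemurafenib, 448, 434 and 457 in DMSO, and 1262, 1180.3 and 1247 at day 0. KEAP1 knockouts were therefore above the start in every drug library and below it in every DMSO library. The KEAP1 score rose by 1.19 ± 0.12 with 6 guides called higher and 0 lower (median log2 fold change 1.78, edgeR/RRA adjusted p = 9.96e-11), and in DMSO the median fell to -1.41. NFE2L2, which encodes NRF2, had 782, 642 and 654 summed CPM under vemurafenib and 941, 930.1 and 976 at day 0. Its median of -0.45 was called depleted against all controls (edgeR/RRA adjusted p = 0.000342), and stood at 0.12 against AAVS1 guides, with no call. SPOP, another CUL3 adaptor, had 1094, 1132 and 1254 summed CPM under vemurafenib, 772, 789.9 and 803 in DMSO, and 1118, 1129 and 1124 at day 0, a median of 0.15 with no call (edgeR/RRA adjusted p = 0.976); against AAVS1 guides it was called enriched (0.72, edgeR/RRA adjusted p = 0.00154).

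Of the other cullins in the library, CUL5, which works with SOCS-box adaptors, was enriched. CUL5 had a summed CPM of 1645, 3170.1 and 1063 under vemurafenib, 474, 480.3 and 408 in DMSO, and 473, 485 and 515 at day 0, so all drug libraries lay above the start. The second library owed much of its sum to the guide CUL5_10, at 50.7, 2043 and 42.7 CPM. The CUL5 score rose by 1.08 ± 0.16, with 8 guides called higher and 1 lower (median 1.60, edgeR/RRA adjusted p = 5.17e-10). CUL2, the cullin of the VHL ligase, went the other way, with 1037, 470.4 and 497 summed CPM under vemurafenib, 156, 212 and 163 in DMSO, and 1044, 1049 and 1018 at day 0 (median -1.09, edgeR/RRA adjusted p = 3e-05). VHL, the substrate adaptor that marks hypoxia-inducible factors, had a median of -1.56 (edgeR/RRA adjusted p = 0.000382) and CUL1, the scaffold of the F-box ligases, one of -1.72 (edgeR/RRA adjusted p = 1.1e-07). Against AAVS1 guides CUL2 and CUL1 were depleted too, and VHL had no call. Of 11 F-box and CUL4 ligase genes, 0 were enriched and 10 depleted, near the 87.0% of all genes that were depleted, with a median of -0.77 against all controls, -0.21 against AAVS1 guides and 0.04 under TMM over all guides.

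NF1 and NF2 followed CUL3. NF1 encodes neurofibromin, which switches RAS off. Its summed CPM was 37920.0, 20043 and 16465 under vemurafenib, 337, 366 and 349.9 in DMSO, and 630.3, 647 and 641 at day 0. The drug libraries were all above the start and the DMSO libraries all below it. The NF1 score rose by 4.09 ± 0.08 and the median guide by 5.57, with 9 guides called higher and 0 lower (edgeR/RRA adjusted p = 3.23e-20), and in DMSO the median was -0.79. Over all genes the DMSO median was -0.97, and against AAVS1 guides NF1 had no call in DMSO (edgeR/RRA adjusted p = 0.292). The guide NF1_7 had 27434, 872 and 1814 CPM under vemurafenib and 84.8, 90.4 and 94.7 CPM at day 0, so the first drug library's sum rests largely on it. NF1_1 was even across the drug libraries, at 3771, 4517 and 3033 CPM, against 79.4, 96.1 and 79.5 CPM at day 0.

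NF2 encodes merlin, an upstream activator of the Hippo pathway. NF2 had a summed CPM of 50071, 129992 and 71032 under vemurafenib, 1131, 1011 and 901 in DMSO, and 1255, 882 and 865 at day 0, again with every drug library far above the start. The guides were split: 5 were called higher and 2 lower, with log2 fold changes from -0.84 to 8.66 (median 2.11, score change 2.61 ± 0.12, edgeR/RRA adjusted p = 1.61e-10). The 2 strongest NF2 guides, NF2_6 and NF2_7, held 2.77% and 2.09% of all reads on average under vemurafenib. NF2_6 had 29015, 46617 and 49425 CPM in the drug libraries and 144, 85.9 and 78.2 CPM at day 0. NF2_10, at the lower end, had 58.0, 69.0 and 40.5 CPM under vemurafenib and 105, 94.9 and 99.3 CPM at day 0.

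Mediator appeared among the enriched genes through 2 of its subunits, although MED23 itself was already absent and is not a target of the library. MED12 anchors the kinase module of Mediator, and its loss is known for drug resistance in several cancer types. Its summed CPM was 11867, 22054 and 32543 under vemurafenib, 152, 204 and 261 in DMSO, and 815, 813 and 857 at day 0. MED12 knockouts were thus enriched under the drug and lost without it, with no overlap among the 3 groups. The MED12 score rose by 3.14 ± 0.29, with 7 guides called higher and 0 lower (median 3.49, edgeR/RRA adjusted p = 5.46e-14), and in DMSO the median fell to -2.11. MED12_5 had 3727, 10758 and 12799 CPM under vemurafenib, 9.4, 7.9 and 28.1 in DMSO, and 133, 164 and 142 at day 0.

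MED19, a subunit of Mediator's middle region, had 2013, 7614 and 15925 summed CPM under vemurafenib, 370.1, 338 and 406 in DMSO, and 1179, 1251 and 1236 at day 0. All drug libraries were above the start, but they spread more than those of any gene described so far. MED19_9 had 208, 296 and 13850 CPM and MED19_10 had 55.4, 3742 and 52.7 CPM in the 3 drug libraries, so each made up much of 1 library's sum. The MED19 score rose by 0.89 ± 0.42, with 4 guides called higher and 0 lower (median 1.04, edgeR/RRA adjusted p = 0.000826), and its DMSO median was -1.74. MED19_3 was above the start in every drug library, at 941, 1887 and 833 CPM against 192, 202 and 177 CPM at day 0. CDK8, the catalytic subunit of that kinase module, had 1323, 3024 and 1458 summed CPM under vemurafenib, 457, 478 and 438 in DMSO, and 1063, 1086 and 1103 at day 0. Its median of 0.37 was not called against all controls (edgeR/RRA adjusted p = 0.231) and was called enriched against AAVS1 guides (0.94, edgeR/RRA adjusted p = 0.000315).

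SAGA is a coactivator that acetylates histone H3 through KAT2A or KAT2B and removes ubiquitin from histone H2B. Of 18 targeted genes of its core and acetyltransferase parts, 7 were enriched and 7 depleted, beside 2.33% and 87.0% of all genes. The median over the 18 genes was -0.33 against all controls, 0.23 against AAVS1 guides and 0.48 under TMM, beside -0.76, -0.19 and 0.06 for all genes. In DMSO 18 of the 18 were depleted, with a median of -1.91, where 1058 of all 1115 genes (94.9%) were depleted and 2 (0.179%) enriched, so the count in DMSO is near the background. Against AAVS1 guides alone DMSO growth depleted 422 of all genes (37.8%) and enriched 17 (1.52%). The enriched members were TADA2B, TADA1, CCDC101, TAF6L, TAF5L, SUPT20H and TADA3. The depleted ones were TRRAP, TAF9, TAF10, TAF12, SF3B3 and SF3B5, which SAGA shares with other complexes, and SUPT3H, a SAGA core subunit with a median of -0.68 (edgeR/RRA adjusted p = 3.25e-05). Against AAVS1 guides TAF9 and SUPT3H had no call. Vemurafenib and DMSO libraries were set against the same day-0 libraries, so their changes are not independent of each other.

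TADA2B, the adaptor that is specific to SAGA, led the complex. Its summed CPM was 4719 in the first, 8622 in the second and 8209 in the third vemurafenib library, 80.3, 104 and 135 in DMSO, and 778, 802 and 810.0 at day 0. TADA2B guides therefore moved in opposite directions in the drug and in vehicle, with no overlap among the groups. The score rose by 2.77 ± 0.30, with 9 guides called higher and 0 lower (median 3.12, edgeR/RRA adjusted p = 1.31e-14), and the DMSO median was -2.98. TADA1, a core subunit, had 7520.4, 8110.3 and 10426 summed CPM under vemurafenib, 183, 233 and 252 in DMSO, and 901, 919 and 947 at day 0 (score change 2.10 ± 0.14, median 2.93, edgeR/RRA adjusted p = 2.21e-11).

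CCDC101, now named SGF29, reads methylated histone H3 for SAGA. It had 2345, 2343 and 3726 summed CPM under vemurafenib, 117, 104 and 116 in DMSO, and 1082, 994 and 983 at day 0 (median 1.28, edgeR/RRA adjusted p = 1.21e-06), and its DMSO median of -3.47 was the lowest of the enriched SAGA members. TAF6L, a histone-fold subunit of the core, had 2415, 5124 and 2714 summed CPM under vemurafenib, 242, 236 and 214 in DMSO, and 723, 682 and 697 at day 0 (median 1.79, edgeR/RRA adjusted p = 9.96e-11). Both genes lay above the start in all drug libraries and below it in all DMSO libraries.

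TAF5L, the WD-repeat subunit of the SAGA core, shows how guides of 1 gene can part ways. Its summed CPM was 2914, 4021 and 2152 under vemurafenib, 207, 272 and 264 in DMSO, and 808, 812 and 855 at day 0, and 5 of its guides were called higher and 5 lower (median 0.57, edgeR/RRA adjusted p = 2.51e-09). Without the second vemurafenib library the TAF5L median was 0.38. The guide TAF5L_6 had 166, 309 and 98.9 CPM under vemurafenib, 1.8, 1.5 and 1.9 in DMSO, and 27.0, 34.5 and 26.9 at day 0. TAF5L_2 had 99.0, 121 and 122 CPM under vemurafenib, 78.9, 90.7 and 84.1 in DMSO, and 179, 189 and 189 at day 0. The 5 guides that were higher under the drug had DMSO changes between -4.09 and -2.79, and the 5 that were lower had DMSO changes between -1.45 and -0.75. These changes share their day-0 libraries.

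SUPT20H, a SAGA core subunit, and TADA3, an adaptor shared by SAGA and the related ATAC complex, were called on fewer guides. SUPT20H had 21820.5, 7434 and 7415 summed CPM under vemurafenib and 1267, 1195 and 1183 at day 0, most of it from SUPT20H_4 at 20579.6, 5929 and 6367 CPM (median 0.20, 3 guides higher and 2 lower, edgeR/RRA adjusted p = 0.00292). TADA3 had 1537, 1064 and 1111 summed CPM under vemurafenib and 894, 939 and 874 at day 0. Its enriched call (edgeR/RRA adjusted p = 0.00292) came from 2 guides while 2 others were lower, its median was -0.36 and its score change -0.27 ± 0.09, and against CTRL and Zhang guides alone the call turned to depleted (edgeR/RRA adjusted p = 3.02e-05). A statement that TADA3 knockouts gained or lost on controls therefore depends on the guide and the reference.

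The catalytic subunits of SAGA did not rise. KAT2A, an acetyltransferase of SAGA and ATAC, had 611, 679 and 622 summed CPM under vemurafenib, 314, 281 and 277 in DMSO, and 834, 941 and 897 at day 0, with no call (median -0.42, edgeR/RRA adjusted p = 0.0894). Its paralog KAT2B had 761, 1525 and 1697 summed CPM under vemurafenib and 847, 908 and 884 at day 0, with overlap and no call (0.10, edgeR/RRA adjusted p = 0.183), and was called enriched against AAVS1 guides (0.66, edgeR/RRA adjusted p = 0.0167). In the deubiquitinase module 0 of 4 genes were enriched and 2 depleted, beside 2.33% and 87.0% of all genes. USP22, its protease, had 851, 934 and 728 summed CPM under vemurafenib, 292, 327 and 278 in DMSO, and 1114, 1104 and 1090.2 at day 0 (median -0.37, edgeR/RRA adjusted p = 0.0296; 0.19 and no call against AAVS1 guides). ATXN7, which anchors the module to SAGA, and ENY2, a small subunit of it, were called enriched against AAVS1 guides, with medians of 0.79 and 0.77, and had no call against all controls (0.22 and 0.20).

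ATAC-specific genes stood beside SAGA without an enriched member. All 10 of 10 were depleted against all controls and 6 against AAVS1 guides, where 87.0% and 32.8% of all genes were, with medians of -1.36, -0.79 and -0.55 against all controls, AAVS1 guides and under TMM. TADA2A, the ATAC counterpart of TADA2B, had 421, 307 and 279 summed CPM under vemurafenib, 299, 279 and 249 in DMSO, and 821, 865 and 807 at day 0 (median -1.50, edgeR/RRA adjusted p = 5.27e-06). ZZZ3, an ATAC histone reader, and YEATS2, a reader of acylated histones in the complex, had medians of -1.60 and -1.31. The NuA4, INO80 and SRCAP complexes, which exchange and acetylate histones at promoters, had 0 enriched and 25 depleted of 27 genes, and 15 depleted against AAVS1 guides, with medians of -1.22, -0.65 and -0.41 under the same 3 scalings.

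Cell-cycle brakes and checkpoint genes formed the next group. Of 17 targeted, 5 were enriched and 7 depleted, beside 2.33% and 87.0% of all genes, with a median of -0.10 against all controls, 0.46 against AAVS1 guides and 0.71 under TMM. In DMSO 1 was enriched and 7 depleted, beside 0.179% and 94.9% of all genes, with a median of -0.27. RB1, the retinoblastoma protein that holds back S-phase entry, had 2429.5, 4598 and 2970.0 summed CPM under vemurafenib, 836, 708 and 924 in DMSO, and 765, 782 and 806 at day 0. The drug libraries lay above the start, and the DMSO libraries overlapped it. Against AAVS1 guides RB1 was called enriched in DMSO as well (edgeR/RRA adjusted p = 0.00648). RB1 rose by a score of 1.50 ± 0.26, with 7 guides called higher and 0 lower (median 1.79, edgeR/RRA adjusted p = 2.21e-11). CDKN1B, the inhibitor p27 of cyclin-dependent kinases, had 3457, 1440.5 and 1171 summed CPM under vemurafenib and 867, 908 and 923 at day 0 (median 0.90, 4 guides higher and 2 lower, edgeR/RRA adjusted p = 8.43e-05).

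The DNA damage genes of the group were weaker. ATM, the kinase that responds to broken DNA, had 1059.6, 1314 and 801 summed CPM under vemurafenib and 742, 761 and 757 at day 0 (median 0.41, edgeR/RRA adjusted p = 0.0243), a call lost against CTRL and Zhang guides alone (edgeR/RRA adjusted p = 0.0548). TP53BP1, which binds chromatin at DNA breaks, had 1357, 1321 and 1153 summed CPM under vemurafenib and 1145, 1184 and 1164 at day 0, with overlap. By gene scores TP53BP1 lay below day 0 in every vemurafenib library (score change -0.18 ± 0.12). Its median guide stood at 0.00, 2 guides were higher and 3 lower (edgeR/RRA adjusted p = 0.0429), and against CTRL and Zhang guides the call turned to depleted (edgeR/RRA adjusted p = 0.000251). CDKN1A, the cyclin-dependent kinase inhibitor p21, had a median of 0.33 with no call (edgeR/RRA adjusted p = 0.246) and was called enriched against AAVS1 guides (0.90). CDKN2A, the p16 locus, had a median of -0.10 with no call under either reference.

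Other checkpoint genes and genes that replicating cells need were lost. MDM2, a ubiquitin ligase, had 178, 337 and 159.8 summed CPM under vemurafenib, 149, 149 and 159.9 in DMSO, and 708, 736 and 758 at day 0 (median -2.77, edgeR/RRA adjusted p = 2.09e-05). MDM4, its binding partner, had 231, 201 and 164 summed CPM under vemurafenib and 671, 697 and 696 at day 0 (median -2.40, edgeR/RRA adjusted p = 6.07e-09). The drug libraries were below the start for both genes without overlap. ATR, the kinase that guards replication forks, had a median of -2.20 and CHEK1, the kinase it activates, one of -2.42. All 11 targeted drivers of the cell cycle were depleted, 10 against AAVS1 guides (87.0% and 32.8% of all genes), with a median of -1.92, -1.35 and -1.11 under the 3 scalings. CDK6, which phosphorylates RB1 in G1, had 193, 223 and 218 summed CPM under vemurafenib, 114, 153 and 115 in DMSO, and 758, 765 and 740.1 at day 0 (median -1.95, edgeR/RRA adjusted p = 3.23e-09). CCND1, the cyclin of CDK4 and CDK6, had a median of -1.81, and CDK4 one of -1.10.

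Other enriched genes belonged to none of these groups. SMAD4, the shared mediator of TGF-beta and BMP signals, had 1018, 1389.9 and 1689 summed CPM under vemurafenib, 555, 594 and 544 in DMSO, and 667, 705 and 709.8 at day 0 (score change 0.66 ± 0.16, median 0.89, edgeR/RRA adjusted p = 5.96e-06). Without the third vemurafenib library the SMAD4 median was 0.57. KAT6A, a histone H3 acetyltransferase of the MYST family, had 989, 1184 and 828 summed CPM under vemurafenib and 561, 608 and 560.1 at day 0 (median 0.80, edgeR/RRA adjusted p = 6.25e-06). SIAH1, a RING-type ubiquitin ligase, had 1858, 3843 and 1434 summed CPM under vemurafenib and 1107, 1098 and 1071 at day 0 (median 0.47, edgeR/RRA adjusted p = 0.000533). In all 3 genes the drug libraries were above the start.

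Further chromatin genes were called enriched with small medians. PBRM1, the targeting subunit of the PBAF remodeller, had 938, 1384 and 1118 summed CPM under vemurafenib and 729, 797 and 777 at day 0 (median 0.38, edgeR/RRA adjusted p = 0.00292). DOT1L, the histone H3K79 methyltransferase, had 1011, 946 and 1307 summed CPM under vemurafenib, 349, 439.8 and 413 in DMSO, and 863, 852 and 836 at day 0 (median 0.23, edgeR/RRA adjusted p = 0.0147). RING1, a ubiquitin ligase of Polycomb repressive complex 1, overlapped its start, at 887, 896 and 2069 summed CPM under vemurafenib against 903, 968 and 946 at day 0 (median 0.22, edgeR/RRA adjusted p = 0.00519). EED, the subunit of Polycomb repressive complex 2 that binds its product, had 1158, 1362 and 1269 summed CPM under vemurafenib, 296, 285 and 340.3 in DMSO, and 872, 1007 and 1018 at day 0 (median 0.14, edgeR/RRA adjusted p = 0.0492). Against CTRL and Zhang guides alone RING1 and DOT1L were called depleted (edgeR/RRA adjusted p = 0.00114 and 0.00524) and EED had no call (edgeR/RRA adjusted p = 0.142). By gene scores, PBRM1, RING1, ATM and EED were the 4 of the 26 whose vemurafenib libraries did not all lie on 1 side of day 0. For TADA3 and TP53BP1 that side was below day 0, opposite to their enriched call (score changes -0.27 ± 0.09 and -0.18 ± 0.12).

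The members of these complexes did not all have the same call. Of 21 BAF and PBAF genes 1 was enriched and 14 depleted, beside 2.33% and 87.0% of all genes. Against AAVS1 guides 3 genes were depleted, and the PBAF subunits ARID2, PBRM1 and BRD7 were enriched, beside 32.8% and 4.30% of all genes. PHF10, another subunit of PBAF, was depleted against all controls (median -0.42, edgeR/RRA adjusted p = 0.00787) and had no call against AAVS1 guides (0.14). ARID2 had 766, 978 and 1206 summed CPM under vemurafenib and 742, 787 and 773 at day 0, with overlap (median 0.49, edgeR/RRA adjusted p = 0.0667 against all controls). The BAF and PBAF median was -0.62 against all controls, -0.05 against AAVS1 guides and 0.20 under TMM. Polycomb repressive complex 2 had 1 enriched and 7 depleted of 11 genes, beside 2.33% and 87.0% of all genes. EZH2, its methyltransferase, had 851, 1025 and 950.4 summed CPM under vemurafenib, 411, 434 and 435 in DMSO, and 1024, 1055 and 1084 at day 0, with overlap of the drug and day-0 libraries and no call (median -0.19, edgeR/RRA adjusted p = 0.193). Polycomb repressive complex 1 had 1 enriched and 20 depleted of 25 genes, near the 2.33% and 87.0% of all genes. Against AAVS1 guides 2 of its genes were depleted, beside 32.8% of all genes.

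AAVS1 guides alone as reference added 22 genes to the enriched set, whose medians against all controls lay between -0.40 and 0.49. Of these, 21 had no call against all controls, and 1, DAPK3, a death-associated kinase, was called in opposite directions: depleted against all controls (median -0.40, edgeR/RRA adjusted p = 0.00341) and enriched against AAVS1 guides (0.17, edgeR/RRA adjusted p = 0.00708). Among the others were the brakes CDKN1A, CDKN2C and CHEK2, the SAGA genes ATXN7, ENY2 and KAT2B, and the KAT6A partner BRPF1 with the KAT6A paralog KAT6B. The list that holds KAT6A, of 21 CREBBP, EP300 and MYST acetyltransferase genes, had 1 enriched and 17 depleted against all controls. Against AAVS1 guides 3 were enriched and 7 depleted, among them BRD1, KAT8 and EP300. Over all genes 2.33% and 87.0% were called so against all controls, and 4.30% and 32.8% against AAVS1 guides. CHEK2, a checkpoint kinase, had 1151, 1545 and 2766 summed CPM under vemurafenib and 1069, 1125 and 1079 at day 0 (0.32, edgeR/RRA adjusted p = 0.131; 0.88 against AAVS1 guides). For the 22 added genes the question of outgrowth is decided by the choice of control guide.

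BRAF, the drug's target, and MAP2K1 were lost from the start, but less under the drug than in vehicle. These were the 2 of 6 targeted RAS, RAF, MEK and ERK genes called higher under vemurafenib than in DMSO, near the 33.5% of all genes called so. The list median was -0.96 under vemurafenib and -0.98 in DMSO. BRAF had 177, 286 and 202 summed CPM under vemurafenib, 53.8, 51.1 and 32.4 in DMSO, and 632, 687 and 681 at day 0. The 3 groups did not overlap, and the drug libraries lay between the others. The BRAF score fell by 1.79 ± 0.12 on the log2 scale under vemurafenib, with 6 guides called lower and 0 higher (median -1.77, edgeR/RRA adjusted p = 9.8e-06), while the DMSO median was -4.55. Vemurafenib against DMSO, in which 373 of 1115 genes were enriched (33.5%) and 31 depleted (2.78%), gave BRAF a median of 2.69 (edgeR/RRA adjusted p = 2.24e-09). A gene enriched against vehicle can thus be well below where it began.

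MAP2K1, which encodes the kinase MEK1 that BRAF activates, had 612, 317 and 1465 summed CPM under vemurafenib, 53.2, 59.4 and 58.8 in DMSO, and 785, 766 and 781 at day 0. The third drug library was above the start and the other two below it. The guide MAP2K1_1 had 317, 48.7 and 1217 CPM under vemurafenib and 36.2, 42.1 and 41.8 CPM at day 0, while 6 guides were called lower, so that the median fell by 1.18 on the log2 scale (edgeR/RRA adjusted p = 3.6e-05) although the summed counts had no call (log2 fold change 0.038, edgeR adjusted p = 0.938). NRAS, which passes receptor signals to RAF kinases, had 515, 425 and 413 summed CPM under vemurafenib, 432, 465 and 445 in DMSO, and 1012, 984 and 961 at day 0 (median -1.11, edgeR/RRA adjusted p = 2.69e-06). MAP2K2, encoding MEK2, and HRAS had medians of -0.47 and -0.80, both called depleted, and neither was called against AAVS1 guides. Of the 6 genes 0 were enriched and 5 depleted, 3 of them against AAVS1 guides, near the 87.0% and 32.8% of all genes.

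Receptor kinases, SRC and their adaptors, which feed RAS from above, had 0 enriched and 11 depleted of 11 genes, 6 against AAVS1 guides (87.0% and 32.8% of all genes), with medians of -1.09, -0.52 and -0.27 under the 3 scalings. The PI3K and mTOR genes had 0 enriched and 8 depleted of 13, beside 2.33% and 87.0% of all genes. Their median was -0.53 against all controls, 0.05 against AAVS1 guides and 0.29 under TMM. RPTOR, the defining subunit of mTORC1, had 254, 328 and 303 summed CPM under vemurafenib, 119, 125 and 143 in DMSO, and 1052, 1118 and 1046 at day 0 (median -2.03, edgeR/RRA adjusted p = 1.02e-07). It was the 1 member of the list depleted against AAVS1 guides, where RHEB, the GTPase that activates mTORC1, was called enriched.

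Among the depleted genes SIN3A, the scaffold of a histone deacetylase complex, had the lowest adjusted p, with 186, 166 and 137 summed CPM under vemurafenib, 105, 115 and 122 in DMSO, and 927, 934 and 871 at day 0 (median -2.38, edgeR/RRA adjusted p = 1.13e-11). KPNB1, the nuclear import receptor, had 80.7, 101 and 105 summed CPM under vemurafenib, 68.9, 65.5 and 72.2 in DMSO, and 937, 999.8 and 974 at day 0 (median -3.28, edgeR/RRA adjusted p = 8.43e-11). All 10 guides of both genes were below every day-0 library in every vemurafenib library, as was so for 114 of 1115 genes. HCFC1, a cofactor of histone methyltransferases, CHMP2A, an ESCRT membrane-scission protein, and FTSJ3, a ribosome assembly factor, had medians of -2.44, -2.64 and -2.39. RPN2, part of the enzyme that adds sugars to proteins, had 261, 241 and 832 summed CPM under vemurafenib and 1160.0, 1174 and 1211 at day 0, the third library being the highest. CDC6, a licensing factor of DNA replication, and EIF3H, a translation initiation factor, had medians of -1.87 and -1.22, and the ribosomal genes RPL27, RPL5 and RPL26 had medians of -2.56, -2.89 and -2.77.

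Elongator, which modifies the wobble base of transfer RNAs, gave 2 of the 15 genes with the lowest p. ELP3, its catalytic subunit, had 298, 299.5 and 291 summed CPM under vemurafenib, 135, 159 and 195 in DMSO, and 1209, 1239 and 1204 at day 0 (median -2.21, edgeR/RRA adjusted p = 2.21e-11). ELP6, of the accessory ring, had 212, 189.8 and 276 summed CPM under vemurafenib and 1015, 1005 and 1108 at day 0 (median -2.10, edgeR/RRA adjusted p = 1.03e-10). All 6 targeted genes of the list were depleted, 5 against AAVS1 guides (87.0% and 32.8% of all genes), with medians of -1.68, -1.12 and -0.87 under the 3 scalings.

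Lists of essential machines set the scale of loss. All 37 cytosolic ribosome genes were depleted against all controls and 35 against AAVS1 guides, beside 87.0% and 32.8% of all genes, with a median of -2.78 under vemurafenib and -4.01 in DMSO. The spliceosome genes, 19 of 19 depleted under both references, had -2.43 and -3.35, and the proteasome genes, 10 of 10 under both, had -2.23 and -3.68. Beside these medians, BRAF stood at -1.77 under the drug and -4.55 in vehicle. Histone chaperones had 16 of 16 genes depleted, 11 against AAVS1 guides, with a median of -1.50, beside -0.76 for all genes. RPL18 was the lowest gene of the screen, with 144, 165 and 162 summed CPM under vemurafenib, 89.0, 92.8 and 120.3 in DMSO, and 1139.6, 1147 and 1191 at day 0.

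Among chromatin regulators the AAVS1 reference separated lists that all controls call almost entirely depleted. Over all genes 87.0% were depleted against all controls and 32.8% against AAVS1 guides, so most of the counts against all controls are near the background. The MLL and COMPASS methyltransferases, which write H3K4 methylation, had 21 of 21 genes depleted against all controls and 15 against AAVS1 guides, with medians of -1.19, -0.62 and -0.37 under the 3 scalings. DOT1L and the super elongation complex, which release paused polymerase, had 18 of 21 depleted, and 11 against AAVS1 guides, with a median of -1.07. Lysine demethylases had 22 of 25 depleted, and 7 against AAVS1 guides, with a median of -0.72 against all controls, -0.15 against AAVS1 guides and 0.09 under TMM. NCoR, CoREST and deacetylase genes had 19 of 22 depleted, and 5 against AAVS1 guides, with a median of -0.64, -0.08 and 0.17. For H3K9 silencing the counts were 11 of 12 and 3, with a median of -0.71, -0.15 and 0.10. The last 3 lists sit near the median of all genes, and the sign of their medians changes with the scaling.

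A small set of knockouts was lower under the drug than in vehicle, and 31 of 1115 genes were called so (2.78%). With AAVS1 guides alone as reference 36 genes were lower than in vehicle (3.23%) and 242 higher (21.7%). FBXO11, a substrate receptor of an F-box ligase, had the lowest p among those named here, with 439, 399.6 and 319 summed CPM under vemurafenib, 657, 660.3 and 651 in DMSO, and 904, 895 and 962 at day 0. The 3 groups did not overlap, and the median was -1.51 against day 0 and -0.89 against DMSO (edgeR/RRA adjusted p = 2.56e-10). SRC, a tyrosine kinase downstream of adhesion and growth factor receptors, had 242, 296 and 197 summed CPM under vemurafenib, 363, 425 and 402 in DMSO, and 878, 858 and 875 at day 0 (-2.05 against day 0 and -0.69 against DMSO). EGFR, the epidermal growth factor receptor, had 449, 437 and 474 summed CPM under vemurafenib, 651, 616 and 606 in DMSO, and 1003, 1027 and 1023 at day 0 (-1.09 and -0.49). FGFR1, a fibroblast growth factor receptor, had 586, 411 and 439.7 summed CPM under vemurafenib, 639, 668 and 641 in DMSO, and 1012, 1040.3 and 1096 at day 0 (-1.45 and -0.55). All 3 kinase genes were lower in every drug library than in any vehicle library. Of the 11 receptor kinase, SRC and adaptor genes 3 were lower under the drug than in vehicle and 2 were higher. Over all genes 2.78% were lower and 33.5% higher. The median of the 11 genes against DMSO was -0.0018.

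Among the NCoR, CoREST and deacetylase genes 2 of 22 were lower under the drug than in vehicle and 8 higher, and among lysine demethylases 2 of 25 were lower and 4 higher. Over all genes 2.78% were lower and 33.5% higher. NCOR1, the nuclear receptor corepressor, had 452, 409.8 and 420.4 summed CPM under vemurafenib, 645, 663 and 781 in DMSO, and 925, 953 and 898 at day 0 (-1.07 against day 0, -0.63 against DMSO). HDAC3, the deacetylase bound to it, had 361, 328 and 305 summed CPM under vemurafenib, 505, 509.9 and 430.4 in DMSO, and 870.1, 865 and 857 at day 0 (-1.53 and -0.47). KDM6A, a demethylase of H3K27, had 314, 306 and 345 summed CPM under vemurafenib, 587, 486 and 483 in DMSO, and 647, 677 and 720.3 at day 0 (-1.06 and -0.63). MBTD1, a chromatin reader of the NuA4 complex and the 1 gene in both this set and the 15 depleted genes with the lowest p, had 219.9, 267 and 223 summed CPM under vemurafenib, 299, 315 and 289 in DMSO, and 791, 795 and 791 at day 0 (-1.75 and -0.52). The ubiquitin-conjugating enzyme UBE2H, the histone H3 kinase GSG2 (Haspin) and SETD5 had medians of -1.75, -1.37 and -0.96 against day 0 and -0.47, -0.43 and -0.55 against DMSO. With AAVS1 guides as reference the change of SETD5 from day 0 had no call (-0.39, edgeR/RRA adjusted p = 0.22).

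At the level of single guides 223 of 12214 were called higher (1.83%) and 5356 lower (43.9%), of which 183 (1.64%) and 5262 (47.2%) of the 11150 gene-targeting guides. The count of higher guides depended on single libraries: it was 341 without the first vemurafenib library, 114 without the first or without the second day-0 library, and 117 without the third. Of the 183 gene-targeting guides 130 (71.0%) belonged to the 26 enriched genes, which were called from the same guides. They lay in 74 genes, 43 of which had 1 such guide, and 14 genes had 5 or more. The 5 genes with at least 2 such guides and no enriched call were CDK8, the tyrosine kinase FRK, the BAF subunits SMARCA4 and SMARCD1, and the ubiquitin-conjugating enzyme UBE2K. SMARCA4, the ATPase of BAF, had 9540.1, 3876 and 1046 summed CPM under vemurafenib and 1024, 859 and 935 at day 0, with a median guide of 0.02 (edgeR/RRA adjusted p = 0.0784).

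Control guides rose as well. CTRL and Zhang guides were called higher for 34 of 797 (4.27%) and AAVS1 guides for 6 of 267 (2.25%). Many of these calls came from 1 drug library: only that library exceeded 2-fold of every day-0 library for 17 of the 34, for 5 of the 6 AAVS1 guides and for 51 of the 183 gene-targeting guides. Zhang_514 had 13934, 41.5 and 108 CPM under vemurafenib and 82.8, 70.2 and 68.7 CPM at day 0, and AAVS1_147 had 73.7, 87.8 and 6238 CPM under vemurafenib and 92.2, 78.7 and 72.3 CPM at day 0. A guide that is high in 1 drug library was thus seen also among controls. Across guides, the change from day 0 correlated between pairs of vemurafenib libraries with Pearson r of 0.69, 0.68 and 0.70 for gene-targeting guides (n = 11150) and -0.03, 0.08 and 0.06 for CTRL and Zhang guides (n = 797). The pairs share the day-0 mean, and guides of a gene share a target, so these values are a description.

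Of the 10 guides with the most reads, 2 were of that kind. CEBPA_7, against a transcription factor of myeloid and fat cells, held 0.00515%, 7.56% and 0.0073% of reads in the 3 vemurafenib libraries and 0.0118%, 0.0137% and 0.0139% at day 0. ALDH6A1_7, against a mitochondrial dehydrogenase, held 4.92%, 0.00285% and 0.00368% under vemurafenib and 0.00952%, 0.00779% and 0.00804% at day 0. In both cases 1 library was high and the other two were below the start. Over all 10 guides the median was -0.47 for CEBPA and -0.48 for ALDH6A1, both called depleted against all controls (edgeR/RRA adjusted p = 0.0119 and 0.0326) and neither against AAVS1 guides. CUL3_10, by contrast, was the top guide in all 3 drug libraries.

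The same library was screened in A375 cells that lack MED12, with vemurafenib at 2 µM, and the change from day 0 to day 14 was compared between the knockouts in 1 fit of 18 libraries. The genotype, the dose and the screen differ together, so they cannot be told apart. The change was higher in MED23 knockout cells for 20 of 1115 genes (1.79%) and lower for 115 (10.3%). The lower count was 70 without the second and 54 without the third MED12 knockout vemurafenib library, and 11 with AAVS1 guides alone as reference. The median AAVS1 guide changed by -0.49 in MED23 knockout cells and 0.03 in MED12 knockout cells, and the median gene-targeting guide by -0.80 in MED23 and -0.28 in MED12 knockout cells. In MED12 knockout cells 21 genes were enriched (1.88%) and 378 depleted (33.9%) against all controls.

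CUL3 stood furthest apart: its score changed by 7.07 ± 0.25 in MED23 knockout cells and 0.13 ± 0.16 in MED12 knockout cells (adjusted p of the difference by edgeR/RRA = 1.26e-22). MED12 changed by 3.14 ± 0.29 in MED23 knockout cells and -0.62 ± 0.0566 in MED12 knockout cells, which already lack it (difference 3.76 ± 0.29, edgeR/RRA adjusted p = 3.64e-14). Of the 18 SAGA core and acetyltransferase genes 5 were higher in MED23 knockout cells and 2, TAF9 and SF3B5, lower, with a median difference of -0.05, beside -0.54 for all genes. In MED23 knockout cells TADA2B, TADA1 and TAF6L changed by 2.77 ± 0.30, 2.10 ± 0.14 and 1.32 ± 0.19, and in MED12 knockout cells by 0.20 ± 0.35, 0.04 ± 0.19 and -0.12 ± 0.22, with edgeR/RRA adjusted p of 4.75e-07, 5.76e-10 and 0.000681. NF1 rose in both, by 4.09 ± 0.08 in MED23 knockout cells and 1.82 ± 0.35 in MED12 knockout cells, and more in the MED23 knockout (edgeR/RRA adjusted p = 2.77e-05). NF2 changed by 2.61 ± 0.12 in MED23 knockout cells and 1.14 ± 0.10 in MED12 knockout cells (adjusted p by edgeR/RRA = 0.0411).

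SETDB1, MPHOSPH8 and TP53BP1 differed in the opposite direction. Of 12 H3K9 silencing genes 2 were lower in MED23 knockout cells and 1 was higher, with a median difference of -0.45. The higher one was EHMT1, an H3K9 methyltransferase, which changed by -0.49 ± 0.21 in MED23 knockout cells and -1.83 ± 0.18 in MED12 knockout cells (adjusted p by edgeR/RRA = 0.0015). SETDB1, a histone H3K9 methyltransferase, changed by -1.47 ± 0.10 in MED23 knockout cells and 2.92 ± 0.14 in MED12 knockout cells (adjusted p by edgeR/RRA = 1.65e-17). In the MED23 knockout its summed CPM was 281, 256 and 250.4 under vemurafenib, 333, 278 and 201 in DMSO, and 692, 705 and 659.8 at day 0, so its loss was similar with and without drug. MPHOSPH8, which binds methylated H3K9 in the HUSH silencing complex, changed by -0.90 ± 0.0447 in MED23 knockout cells and 1.88 ± 0.26 in MED12 knockout cells (adjusted p by edgeR/RRA = 3.64e-14). TP53BP1 changed by -0.18 ± 0.12 in MED23 knockout cells and 2.37 ± 0.19 in MED12 knockout cells (adjusted p by edgeR/RRA = 3.64e-14).

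For several enriched genes a difference between the knockouts was not detected. RB1 changed by 1.50 ± 0.26 in MED23 knockout cells and 1.35 ± 0.28 in MED12 knockout cells, a difference of 0.14 ± 0.38 (edgeR/RRA adjusted p = 1). KEAP1 changed by 1.19 ± 0.12 in MED23 and 0.63 ± 0.0977 in MED12 knockout cells, a difference of 0.56 ± 0.15 (edgeR/RRA adjusted p = 0.296), and CDKN1B by 0.36 ± 0.10 in MED23 and 1.03 ± 0.31 in MED12 knockout cells, a difference of -0.67 ± 0.33 (edgeR/RRA adjusted p = 0.202). BRAF changed by -1.79 ± 0.12 in MED23 knockout cells and -1.32 ± 0.22 in MED12 knockout cells, a difference of -0.47 ± 0.25 (edgeR/RRA adjusted p = 0.63). ELP3 changed by -2.33 ± 0.0623 in MED23 and -2.48 ± 0.0951 in MED12 knockout cells (adjusted p by edgeR/RRA = 1). A p-value that misses the threshold does not show that the knockouts act alike.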

How the data were processed

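The table that the authors deposited holds a raw count for each guide in each library, without normalization, as its values show (all whole numbers). bcl2fastq, HISAT2 and HTSeq are named in the submitters' processing notes, while their versions, the guide reference and any read filters are not stated there. All 9 libraries of the MED23 knockout table were fitted with edgeR 4.0.16 in R 4.3.3 (quasi-likelihood, 1 mean per group, TMM on the 1064 control guides, filterByExpr with a minimum count of 10 and a total of 15, which kept 12214 guides). Signed guide p-values were ranked among the control guides and combined by RRA (alpha 0.25, exact null), taking 2 times the smaller p of both directions, with Benjamini-Hochberg adjustment over 1115 genes and a threshold of 0.05. The difference between knockouts came from 1 fit of 18 libraries. The steps were tested on simulated data. Of the symbols, 1069 are current in the RefSeq gene table and 43 are older names.

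The members and gene lists were chosen with earlier results of these data known. Genes were named by rule: up to 15 per direction with the lowest adjusted p whose vemurafenib scores all lay on 1 side of day 0, MED12, BRAF, NF1, NF2, CUL3, KEAP1 and MAP2K1 always, members of the 45 gene lists, up to 8 per direction for the difference between knockouts, and the 10 guides with the most reads. Genes named outside it (those lower than DMSO, FRK, UBE2K, DAPK3, CEBPA, ALDH6A1 and control guides) were chosen after their values were seen. Some genes that the rule names are not reported here. Labels number the libraries 1 to 3 in each group. Deviations from the group mean of same-numbered vemurafenib and day-0 libraries correlated by 0.32, 0.30 and 0.31. The numbers were taken to pair them, from the data and not from a statement in the labels. This pairing entered only as a replicate block among the alternatives. The main fit, the standard errors and the permutation tests left it out. Alternatives were other scalings and reference guides, filters, RRA settings, DESeq2 1.42.0, limma 3.58.1 on gene scores, edgeR on summed counts, a replicate block, and each library left out.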

Additional observations from a re-analysis of the deposited data

Results flagged for a closer look

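For 15 genes the change from day 0 under vemurafenib differed between the knockouts, by a test of the difference itself (edgeR/RRA, joint fit of 18 libraries, up to 8 per direction with the lowest adjusted p). The values are score changes, MED23 knockout minus MED12 knockout cells, on the log2 scale. Dose (1 µM and 2 µM) and screen differ with the genotype and cannot be told apart from it.

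Higher in MED23 knockout cells were the CUL3 scaffold (6.95), the Mediator subunits MED12 (3.76) and MED19 (1.79), the SAGA genes TADA2B (2.57), TADA1 (2.06) and TAF6L (1.44), the RAS brake NF1 (2.28) and the methyltransferase EZH2 (1.78). EZH2 was not called within the MED23 knockout screen, where its score changed by -0.25 ± 0.13, against -2.02 ± 0.26 in MED12 knockout cells (SE, n = 3 libraries per group). MED19 changed by 0.89 ± 0.42 in MED23 knockout cells and -0.90 ± 0.36 in MED12 knockout cells.

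Lower in MED23 knockout cells were the silencing genes SETDB1 (-4.39) and MPHOSPH8 (-2.78), TP53BP1 (-2.55), the ribosomal genes RPL37A (-2.27) and RPL18 (-2.24), the transcription factor GTF2I (-1.38) and the histone demethylase KDM5C (-1.33). RPL37A changed by -3.03 ± 0.25 in MED23 knockout cells and -0.76 ± 0.48 in MED12 knockout cells, and RPL18 by -3.81 ± 0.20 in MED23 and -1.57 ± 0.61 in MED12 knockout cells. GTF2I changed by -0.90 ± 0.0645 in MED23 knockout cells and 0.48 ± 0.24 in MED12 knockout cells, and KDM5C by -0.91 ± 0.0526 in MED23 and 0.42 ± 0.14 in MED12 knockout cells. The median gene-targeting guide also stood lower in MED23 knockout cells (-0.80) than in MED12 knockout cells (-0.28), and its part in these differences was not tested.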

How the results depend on the processing

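Scaling moved the guide counts most: higher and lower guides numbered 1598 and 1490 under TMM over all guides, 1397 and 1563 under median-ratio size factors, and 734 and 2061 with AAVS1 scaling, against 223 and 5356. Enriched and depleted genes numbered 51 and 47 with ranks among gene-targeting guides, and 48 and 366 with scaling and ranks on AAVS1 guides. edgeR on summed counts gave 41 enriched genes. With each library left out in turn the ranges were 114 to 341 higher and 3829 to 5070 lower guides, 23 to 26 enriched and 912 to 961 depleted genes, and, for the difference between knockouts, 14 to 20 higher and 54 to 125 lower genes. That lower count was 196 under TMM, 8 with ranks among gene-targeting guides and 11 with AAVS1 guides, and the higher count was 44 with limma on gene scores. With ranks among gene-targeting guides BRAF (median -1.77, edgeR/RRA adjusted p = 1) and MAP2K1 (-1.18, edgeR/RRA adjusted p = 0.972) turned to the other tail without a call, and MAP2K1 summed counts gave 0.038 (edgeR adjusted p = 0.938). The causes were not tested. Of 32 named genes tested under every alternative, 26 kept direction and call. Besides BRAF and MAP2K1, FTSJ3, MBTD1, EIF3H and ELP6 lost the call with ranks among gene-targeting guides, as RPL18 did among the 16 genes of the difference. A replicate block gave 155 higher and 5313 lower guides and 26 enriched and 982 depleted genes, with vemurafenib and day-0 libraries alone 158 and 6401 guides and 28 and 980 genes, and within each screen 30 and 106 genes for the difference. It changed no call of the named genes. Deviations of DMSO and day-0 libraries of equal number correlated by -0.14, -0.17 and 0.30, and DMSO library 1 followed day-0 library 2 (0.30) and DMSO library 2 day-0 library 1 (0.31). The AAVS1 and CTRL and Zhang rank references and the block on 6 libraries were chosen after seeing the data.

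The median guide had 740 reads or more in every drug library. CTRL and Zhang guides were grouped by mean reads at day 0, with bounds at 1231, 1786 and 2536 reads. From fewest to most reads, the groups held 98, 144, 232 and 323 guides. The SD of their log2 fold changes was 0.48, 0.89, 0.53 and 0.58 under vemurafenib. In DMSO the SD was 0.34, 0.26, 0.23 and 0.19. Whether depth, or the number of cells per guide, set this spread was not tested.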
